A study of Danio rerio with 18 samples.

Results

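The genes described here are 6 genes of early mesoderm and of the Apelin receptor pathway, taken by symbol, ignoring case, from a table of 27015 zebrafish genes. They are the transcription factor genes tbxta (ENSDARG00000101576.1), tbx16 (ENSDARG00000007329.8) and noto (ENSDARG00000021201.7), the ligand gene apela (ENSDARG00000094729.1) and the receptor genes aplnra (ENSDARG00000002172.9) and aplnrb (ENSDARG00000036670.7). RNA came from pooled whole eggs or embryos of the wild-type AB strain, at the egg, 1-cell, 16-cell and 128-cell stages and at 3.5 and 5.3 hours post fertilisation (hpf). No group carried a mutation or treatment. At each stage ribosomal RNA was depleted, and RNA was sequenced in 3 ways: mRNA loaded on polysomes (strings of ribosomes on 1 mRNA; bound), mRNA free of them (unbound) and all RNA together (unfractionated). Each of the 18 combinations was 1 library, so no combination had a replicate. Depth was counted as reads assigned to transcript entries. It was 50750000 to 66050000 reads in bound, 30670000 to 71650000 in unbound and 35780000 to 60150000 in unfractionated libraries.

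T-box proteins are transcription factors that share a DNA-binding domain. In zebrafish, tbxta (no tail, the Brachyury orthologue) is needed for notochord and tail mesoderm, and tbx16 (spadetail) for trunk paraxial mesoderm. The homeobox gene noto (floating head) is needed for the notochord. Apela (Toddler or Elabela) is a short secreted peptide of the gastrula that acts through the Apelin receptors, G protein-coupled receptors encoded by aplnra and aplnrb, which are needed for the movement of mesendodermal cells during gastrulation. Eggs and cleavage embryos run on RNA stored by the mother, and the embryo's own genome is activated broadly around the midblastula stages, before 3.5 hpf.

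Levels are given as normalized counts, the authors' read counts per gene corrected for library size. For tbxta and apela they are also corrected for the mean length of the transcripts read. All 6 genes were far higher at 3.5 and 5.3 hpf than at any of the 4 earlier stages. The late and early libraries did not overlap for any of the 6 genes in any of the 3 fractions. Of all genes, both late libraries lay above all early ones for 33.9% in unfractionated, 27.9% in bound and 31.1% in unbound RNA. The genes differed in how much RNA preceded activation, in how much of the increase came after 3.5 hpf, and in the bound over unbound ratio at 3.5 hpf.

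**Figure D1:**
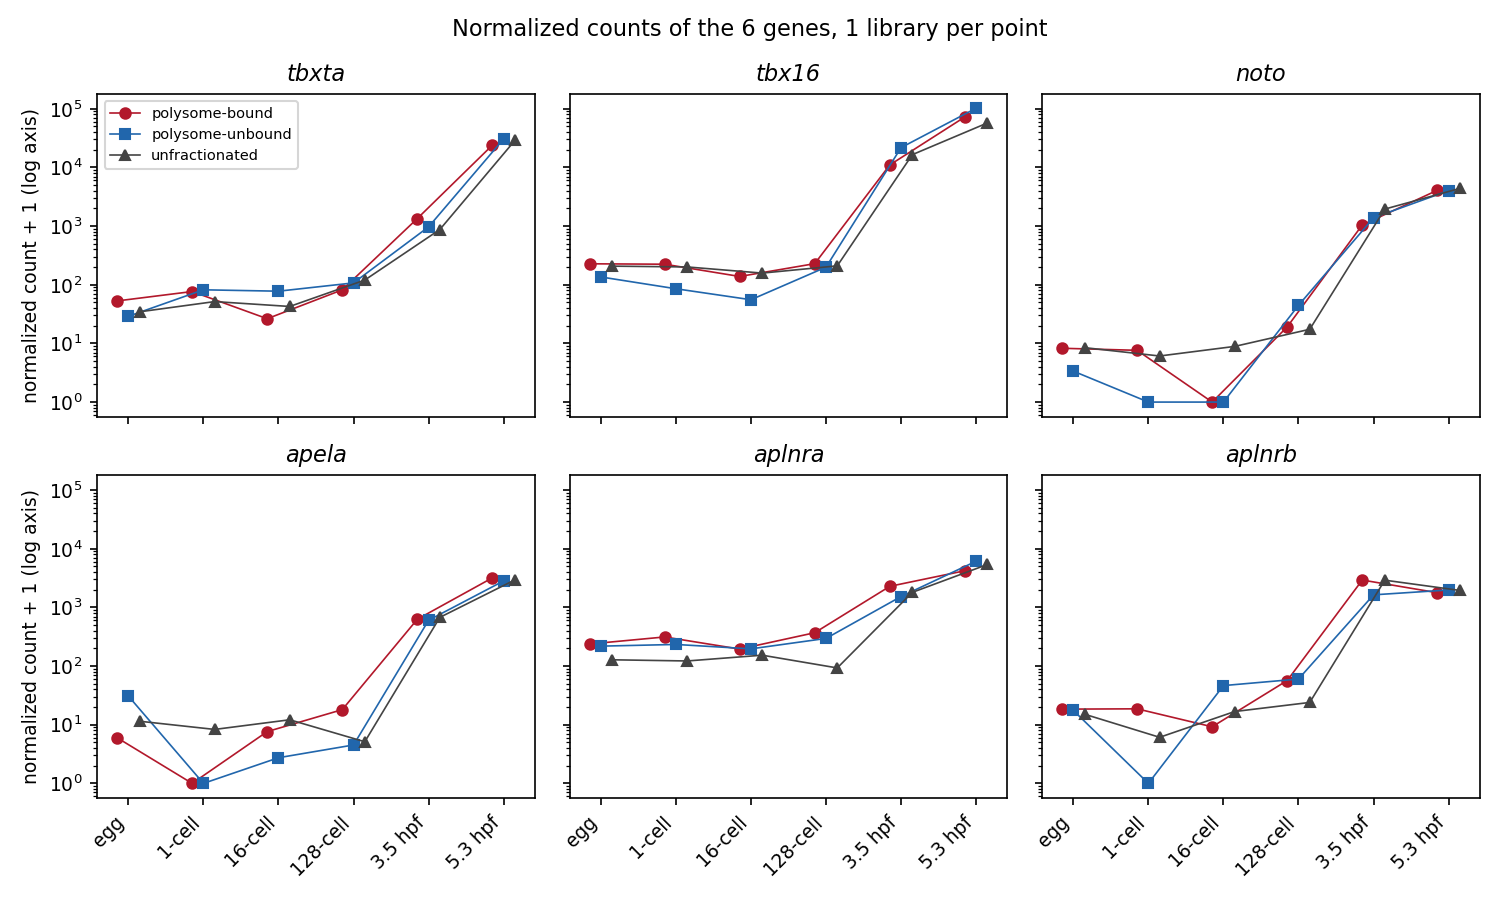
Normalized count + 1 (log axis) of each gene at each stage, 1 point per library, for polysome-bound, polysome-unbound and unfractionated RNA. In every panel all points at 3.5 and 5.3 hpf lie above all earlier points, and the aplnrb points alone stay near level or drop between the late stages.

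Among the transcription factors, tbxta stood out by the size of its increase after 3.5 hpf. Its normalized count in unfractionated RNA was 33.6 in the egg, 50.7 at the 1-cell, 41.7 at the 16-cell and 119.3 at the 128-cell stage, then 874.2 at 3.5 hpf and 28890.9 at 5.3 hpf. Bound RNA gave 52.0, 75.7, 25.4, 81.0, 1346.2 and 24011.7 counts over the 6 stages, and unbound RNA 28.0, 81.1, 76.7, 106.6, 969.7 and 30692.7. Steps between stages are given here and below as (later count + 1) over (earlier count + 1). The unfractionated level was thus 7.27-fold higher at 3.5 hpf than at the 128-cell stage, and 33.0-fold higher at 5.3 hpf than at 3.5 hpf. The second step put tbxta at percentile 99.6 of all genes, against percentile 85.2 for the step to 3.5 hpf. In unbound RNA the same steps were 9.02-fold and 31.6-fold. In bound RNA they were nearly equal, at 16.4-fold (percentile 93.8) and 17.8-fold (percentile 95.8).

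The gene tbx16 gave the highest counts of the 6 at both late stages. In unfractionated RNA it had 206.7, 200.3, 157.1 and 209.1 counts from egg to 128 cells, 16525.7 at 3.5 hpf and 57367.8 at 5.3 hpf. Bound RNA gave 226.8, 223.1, 137.5, 228.1, 11045.1 and 72625.0 counts over the 6 stages, and unbound RNA 134.9, 84.5, 54.6, 198.6, 21785.3 and 102427.4. Its main step came early: 78.7-fold at 3.5 hpf over 128 cells, then 3.47-fold at 5.3 hpf over 3.5 hpf.

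Before activation noto was close to undetected. Unfractionated RNA gave 7.47, 5.10, 7.89 and 16.4 counts from egg to 128 cells, which rest on 4 to 15 reads per library, then 1949.4 at 3.5 hpf and 4392.2 at 5.3 hpf. Bound RNA gave 7.27, 6.63, 0, 18.2, 1046.4 and 4084.3 counts. Unbound RNA gave 2.37, 0, 0, 43.6, 1386.5 and 4021.7 counts. A value of 0 allows up to 3.52 counts in the bound 16-cell library, and up to 3.67 and 4.55 counts in the unbound 1-cell and 16-cell libraries, the worth of 3 reads. The step to 3.5 hpf was 112-fold and the next one 2.25-fold in unfractionated RNA.

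The ligand gene apela was as low as noto at the early stages. Unfractionated RNA gave 10.5, 7.32, 11.2 and 4.13 counts from egg to 128 cells, resting on 4 to 15 reads, then 676.2 and 2949.7 at 3.5 and 5.3 hpf. Bound RNA gave 5.0, 0, 6.64, 17.1, 627.9 and 3193.8 counts, and unbound RNA 29.9, 0, 1.74, 3.52, 603.2 and 2830.5. Both 0 values were in 1-cell libraries, which allow up to 3.31 bound and 3.67 unbound counts. The fractions were close to each other at the late stages. The step to 3.5 hpf was 132-fold in unfractionated RNA, followed by 4.36-fold.

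The receptor genes differed from each other. For aplnra, RNA was present in every early library: 127.0, 121.2, 152.3 and 92.0 counts in unfractionated RNA from egg to 128 cells, then 1805.7 and 5392.8 at the late stages. Bound RNA gave 236.9, 312.6, 193.9, 369.4, 2288.4 and 4221.0 counts, and unbound RNA 217.7, 232.7, 195.6, 295.1, 1533.7 and 6131.5. Its steps were 19.4-fold and 2.99-fold in unfractionated RNA. The step to 3.5 hpf was smaller in both fractions, at 6.18-fold in bound and 5.18-fold in unbound RNA. At every early stage the unfractionated count lay below the counts of both fractions.

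For aplnrb, early RNA was scarce and the level did not go on increasing after 3.5 hpf. Unfractionated RNA gave 14.1, 5.10, 15.8 and 23.0 counts from egg to 128 cells, 2912.7 at 3.5 hpf and 1947.4 at 5.3 hpf. Bound RNA gave 17.4, 17.7, 8.22, 55.7, 2929.0 and 1780.4 counts, and unbound RNA 16.6, 0, 45.5, 59.1, 1638.0 and 1983.9. The 0 in the unbound 1-cell library allows up to 3.67 counts. At 5.3 hpf the unfractionated level was 0.669 times that at 3.5 hpf, the bound level 0.608 times and the unbound level 1.21 times. The other 5 genes were at least 2-fold higher at 5.3 hpf than at 3.5 hpf in unfractionated RNA, as were 18% of all genes. All 6 were at least 2-fold higher at 3.5 hpf than at 128 cells, as were 31.7% of all genes.

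A test over libraries set 3.5 and 5.3 hpf against the 4 earlier stages in unfractionated RNA, to ask which of these RNAs were higher after genome activation. It used limma on log2(count + 1), with stages standing in for replicates (6 libraries), and Benjamini-Hochberg adjustment over the 23949 genes tested. All 6 genes were higher at an adjusted p under 0.05, as were 22.5% of all genes, and 13% were lower. The split of 5380 genes higher and 3120 lower became 4067 and 6589 when each library was centred on its median. The log2 values were 6.51 ± 1.23 for tbxta (SE, 91.4-fold, limma adjusted p = 0.00725), 7.32 ± 0.47 for tbx16 (160-fold, 0.000341) and 8.27 ± 0.59 for noto (309-fold, 0.000347). The ligand apela had 7.33 ± 0.70 (161-fold, limma adjusted p = 0.000658). The receptors had 4.67 ± 0.48 for aplnra (25.5-fold, limma adjusted p = 0.000819) and 7.42 ± 0.61 for aplnrb (172-fold, 0.000433). They lay at percentiles 95.7 (aplnra) to 99.6 (noto) of all genes, whose median was 0.23. With 10 in place of 1 added to each count, log2 was 7.29 for noto, 6.30 for apela and 6.66 for aplnrb. For tbx16 it was 7.25, for tbxta 6.28 and for aplnra 4.58. The folds of noto, apela and aplnrb, low at the early stages, thus depend on the added count. All 6 stayed higher in each of 13 alternatives, edgeR on transcript counts among them, with a highest adjusted p of 0.0229, for tbxta without the egg. The tbxta estimate moved most: it was 3.99 ± 0.74 without 5.3 hpf and 9.04 ± 0.69 without 3.5 hpf. In bulk embryos, more cells with an RNA and more RNA per cell cannot be told apart.

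By a rule for onset (the earliest stage with at least 10 counts and 4 times the highest earlier value in that fraction), all 6 genes had their onset at 3.5 hpf in bound and in unfractionated RNA. Of all genes, 10.9% had onset at that stage in bound and 11.1% in unfractionated RNA. In unbound RNA 5 of the 6 did, as did 10.3% of all genes. The exception was noto, with onset at the 128-cell stage in unbound RNA, shared by 2.4% of all genes. At 128 cells noto had 14 reads in the bound library (95% Poisson interval 7.65 to 23.5), 70 in the unbound library (54.6 to 88.4) and 15 in the unfractionated one (8.40 to 24.7). These intervals cover counting error only. The transcription factors, the ligand and the receptors therefore shared their onset stage in polysome-bound RNA at the spacing of these samples. With 10 times in place of 4, onset of tbxta was at 5.3 hpf in unbound and unfractionated RNA, and aplnra had none in bound or unbound RNA.

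Per transcript length (TPM, a unit scaled to transcript length and library size, from the deposited transcript files), aplnra led the early stages. Its unfractionated level was 2.82 TPM in the egg, 2.81 at 1 cell and 3.49 at 16 cells, followed by tbx16 with 1.46, 1.47 and 1.15 TPM. At 128 cells tbxta (2.74 TPM) stood above aplnra (2.2 TPM) in unfractionated RNA, a ratio of 1.25. In the bound and unbound 128-cell libraries aplnra still led, with 5.37 and 7.21 TPM against 1.14 and 2.5 TPM for tbxta. At 3.5 hpf the unfractionated order was tbx16 (130 TPM), noto (92.4), aplnrb (57.9), aplnra (44.9), apela (40.4) and tbxta (20.9). At 5.3 hpf it was tbxta (512 TPM), tbx16 (335), noto (154), apela (130), aplnra (99.3) and aplnrb (28.7). Thus, in unfractionated RNA, tbxta was the lowest of the 6 at 3.5 hpf and the highest at 5.3 hpf. At 5.3 hpf tbxta was level with tbx16 in bound RNA (332 against 331 TPM). In unbound RNA it was below tbx16 (617 against 679 TPM). Bound RNA of tbxta was 1.14 TPM at 128 cells, 23.8 TPM at 3.5 hpf and 332 TPM at 5.3 hpf. By TPM its step to 3.5 hpf was thus the larger in bound RNA, where normalized counts gave nearly equal steps. Neighbours in the unfractionated orders differed by as little as 1.11-fold (aplnra over apela at 3.5 hpf) and 1.18-fold (noto over apela at 5.3 hpf). With 1 library a stage, such small gaps have no replicate spread to be set against.

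**Figure D2:**
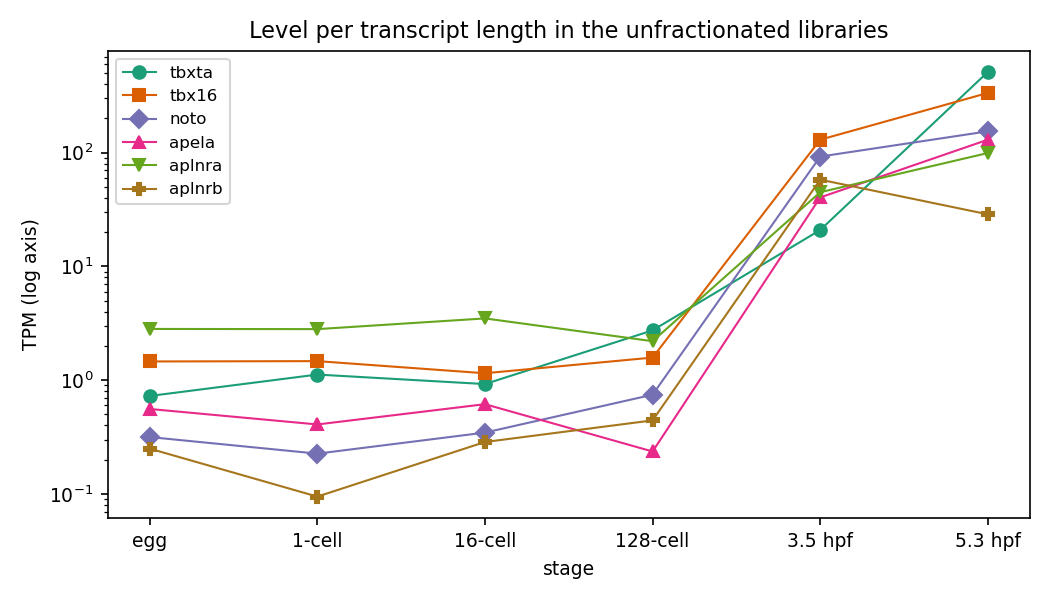
Level of each gene in the unfractionated libraries in TPM (log axis) by stage, 1 library per point. The tbxta line is the lowest at 3.5 hpf (20.9 TPM) and the highest at 5.3 hpf (512 TPM), and the aplnrb line is lower at 5.3 hpf (28.7 TPM) than at 3.5 hpf (57.9 TPM).

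The place of tbxta at 5.3 hpf rests on which of its transcripts the reads were assigned to. The gene's values matched the sum of a 2211 nt transcript and an 851 nt transcript. At 5.3 hpf the longer one had 190 TPM in bound, 180 TPM in unbound and 189 TPM in unfractionated RNA. Near-equal TPM in bound and unbound RNA is not an equal place among genes. Each of the other genes had fewer TPM in bound than in unbound RNA at 5.3 hpf (log2 ratio −0.37 for apela to −1.08 for aplnra). On the longer transcript alone tbxta lay below tbx16 (335 TPM) in unfractionated RNA. Its unfractionated level was 2.74 TPM at 128 cells and 12.8 TPM at 3.5 hpf. The later step was thus still the larger, but both steps were smaller than with the shorter transcript added. The shorter one had 143 TPM in bound RNA, 437 TPM in unbound RNA and 323 TPM in unfractionated RNA. It made up 42.9% of the gene's TPM in bound RNA and 70.8% in unbound RNA at 5.3 hpf, but 51.43% in bound and 49.97% in unbound RNA at 3.5 hpf. At 3.5 hpf the longer one had 11.5 TPM in bound and 11.6 TPM in unbound RNA. These shares come from 1 library each, and the estimated reads of transcripts that share sequence depend on how the software divided them, so no test was made.

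**Figure D3:**
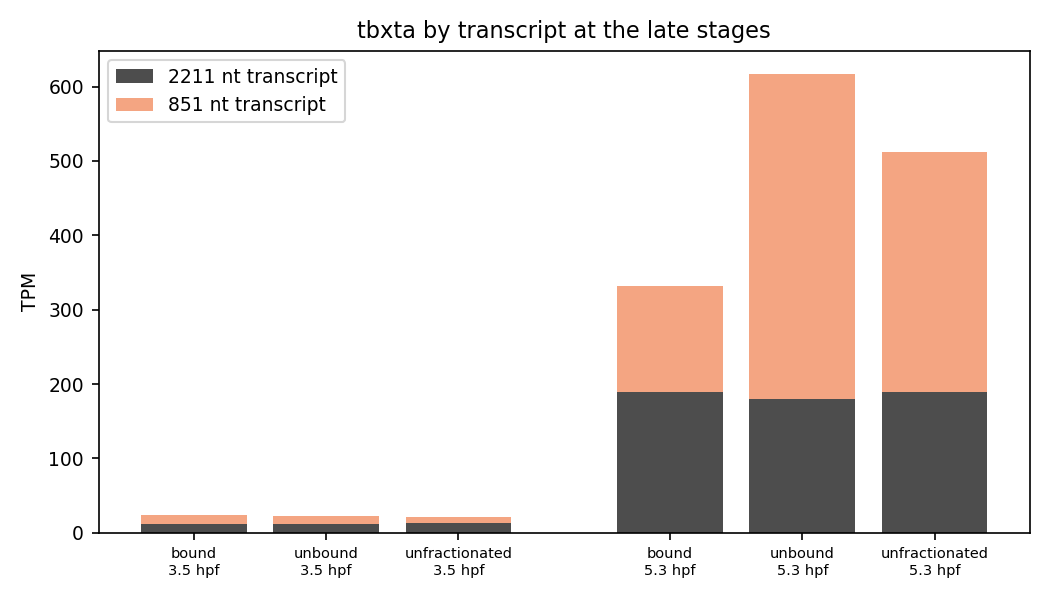
TPM of the 2 transcripts matched to tbxta, stacked, in the bound, unbound and unfractionated libraries of 3.5 and 5.3 hpf. At 5.3 hpf the 2211 nt part is 180 to 190 TPM in all 3 bars, and the 851 nt part is 143 TPM in bound against 437 TPM in unbound RNA.

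For apela, a 748 nt transcript held 22 of 22 reads in the unbound egg library and 6.40 of 12 in the unfractionated egg library, and an 867 nt transcript held the rest. At 5.3 hpf the 867 nt transcript made up 99.3% of apela TPM in bound RNA, 99.3% in unbound RNA and 94.9% in unfractionated RNA. Egg reads and 5.3 hpf reads of apela thus lay mostly on different annotated transcripts, while all 14 reads of the bound 128-cell library lay on the 867 nt one. The genes tbx16, noto, aplnra and aplnrb each matched 1 transcript.

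The bound over unbound ratio was then read at each stage, as log2 of (bound + 1) over (unbound + 1), for genes with bound plus unbound of at least 50 counts. Fractions were scaled as separate libraries, so a ratio says where a gene lies among other genes and is not the share of its molecules on polysomes. At 3.5 hpf the genes differed in this ratio. The ratio was 0.84 for aplnrb, 0.58 for aplnra, 0.47 for tbxta, 0.06 for apela, −0.41 for noto and −0.98 for tbx16. The median of all genes was −0.15. The receptors were at percentiles 77.9 (aplnrb) and 71.5 (aplnra), tbxta at 68.4, apela at 56.6, noto at 41.9 and tbx16 at 26.7. The transcription factors therefore lay on either side of the ligand, with the receptors above it. Counting error was at most ± 0.14 for each of these ratios, and it leaves out any difference between replicate libraries.

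At 5.3 hpf the 6 genes were closer together and in another order. The ratio was 0.17 for apela, 0.02 for noto, −0.16 for aplnrb, −0.35 for tbxta, −0.50 for tbx16 and −0.54 for aplnra, against a median of −0.35 for all genes. All genes were closer together as well, with a 25th to 75th percentile of −0.87 to 0.29. The 6 genes lay between percentiles 41.2 (aplnra) and 70.9 (apela). Between the late stages aplnra was 1.84-fold higher in bound RNA and 4.0-fold higher in unbound RNA at 5.3 hpf than at 3.5 hpf. The reverse held for noto, which was 3.90-fold higher in bound and 2.90-fold higher in unbound RNA. For tbx16 the steps were 6.57-fold in bound and 4.70-fold in unbound RNA. For tbxta, the ratio of −0.35 at 5.3 hpf became 0.09 when its reads were taken without the length correction, and that at 3.5 hpf was 0.45. Of the other genes only apela has that correction. Without it the apela ratio was 0.01 at 3.5 hpf and 0.17 at 5.3 hpf. In TPM of the matched transcripts, every late ratio was lower, by nearly the same amount for each gene of a stage. This is a shift of library scale, so the order of the genes could not change with it. At 3.5 hpf the ratios of aplnrb (0.40), aplnra (0.14) and tbxta (0.04) stayed above 0, a sign that depends on that scale.

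**Figure D4:**
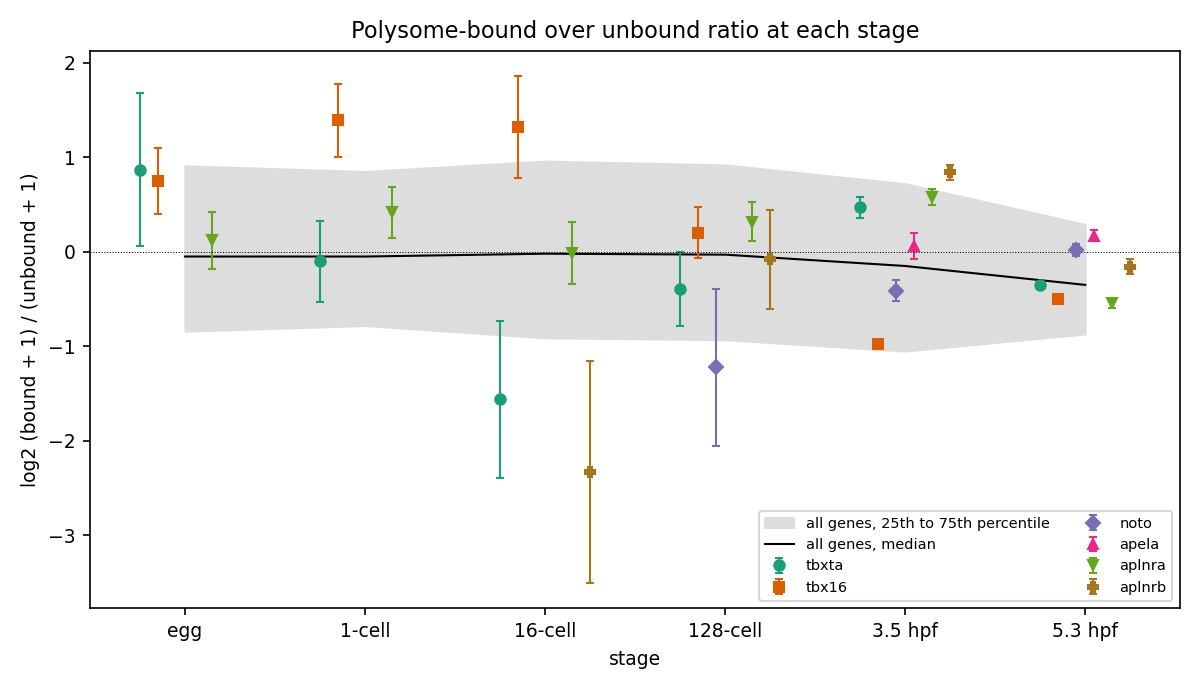
Log2 of the bound over unbound ratio of each gene at each stage, with 95% counting error, for genes with at least 50 counts in bound plus unbound. The grey band spans the 25th to 75th percentile of all genes and the line is their median. At 3.5 hpf aplnrb (0.84) lies above the band and tbx16 (−0.98) near its lower edge, and at 5.3 hpf all 6 genes lie inside the band.

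Early ratios could be read for few of the genes. For tbx16 they were 0.75, 1.39, 1.32 and 0.20 from egg to 128 cells, above the median of all genes at each of the 4 stages. At 128 cells its 95% counting error of ± 0.27 took in that median (−0.03). For aplnra they were 0.12, 0.42, −0.01 and 0.32, between percentiles 50.1 and 64.6. For tbxta they were 0.87, −0.10, −1.56 and −0.39, and the value at 16 cells (counting error ± 0.83) rests on 14 reads in the bound library. Without the length correction they were 1.51, −0.10, −2.51 and −0.63. For aplnrb the 16-cell ratio was −2.33 (counting error ± 1.17, 7.3 reads in bound and 30.1 in unbound RNA) and the 128-cell ratio −0.08. For noto the 128-cell ratio was −1.22 (counting error ± 0.83), and apela passed the minimum at no early stage.

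Tests of the ratio across stages used limma on bound and unbound libraries with stage as a block. Over all 6 stages (12 libraries) none of the 6 genes was called, while 8.46% of all genes were higher and 7.1% lower in bound RNA, and none had an unadjusted p under 0.05. The log2 values were −0.18 ± 0.35 for tbxta, 0.36 ± 0.34 for tbx16, 0.44 ± 0.58 for noto, 0.23 ± 0.60 for apela, 0.15 ± 0.25 for aplnra and 0.43 ± 0.68 for aplnrb (SE). At the 2 late stages alone (4 libraries, 1 residual degree of freedom) none was called either, against 3.98% of all genes higher and 5.63% lower, and none had an unadjusted p under 0.05. The extremes there were tbx16 at −0.74 ± 0.52 and aplnrb at 0.34 ± 0.46. At the 4 early stages (8 libraries) none was called, against 17.2% higher and 13.5% lower. The count at an unadjusted p under 0.05 was 1, namely tbx16 at 0.91 ± 0.35 (limma adjusted p = 0.0844). edgeR on transcript counts called none of the 6 in any of these. A missed threshold does not show that bound and unbound levels were equal.

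The late minus early change of the ratio was tested directly over the 12 libraries. None of the 6 passed with limma, against 2.36% of all genes higher and 5.39% lower, and edgeR on transcript counts called none. The count at an unadjusted p under 0.05 was 1. That gene was tbx16, at −1.65 ± 0.45 (limma adjusted p = 0.0541), where the median of all genes was −0.51. Without the 128-cell libraries its value was −1.89 at a limma adjusted p of 0.025, and over the 14 alternatives the adjusted p ranged between 0.025 and 0.837. The other changes were 0.35 ± 0.70 for tbxta, −0.94 ± 1.24 for noto, −0.16 ± 1.31 for apela, −0.19 ± 0.45 for aplnra and −0.13 ± 1.52 for aplnrb.

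These ratios depend on how the fraction libraries are scaled. With each library scaled to 4 control-like sequence entries, the median bound over unbound value of all genes was −1.34 over the 6 stages, against −0.01 with the deposited scaling, and 12584 genes were lower and 161 higher, against 1768 lower and 2106 higher as deposited. Then 3 of the 6 genes were lower in bound RNA: tbxta at −1.63 ± 0.52 (limma adjusted p = 0.0105), aplnra at −1.33 ± 0.46 (0.0166) and tbx16 at −1.11 ± 0.45 (0.0381). With library totals 6026 genes were lower and 1118 higher, and with median centring 949 were lower and 3268 higher, and none of the 6 passed under either. The split also turned with scaling at the late stages, where 966 genes were higher and 1366 lower as deposited, and 1002 were higher and 361 lower with TMM. For the change of the ratio it was 587 higher and 1342 lower as deposited, and 896 and 830 with TMM. At the early stages it was 3819 higher and 3008 lower as deposited, and 2030 and 6822 with library totals.

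**Figure D5:**
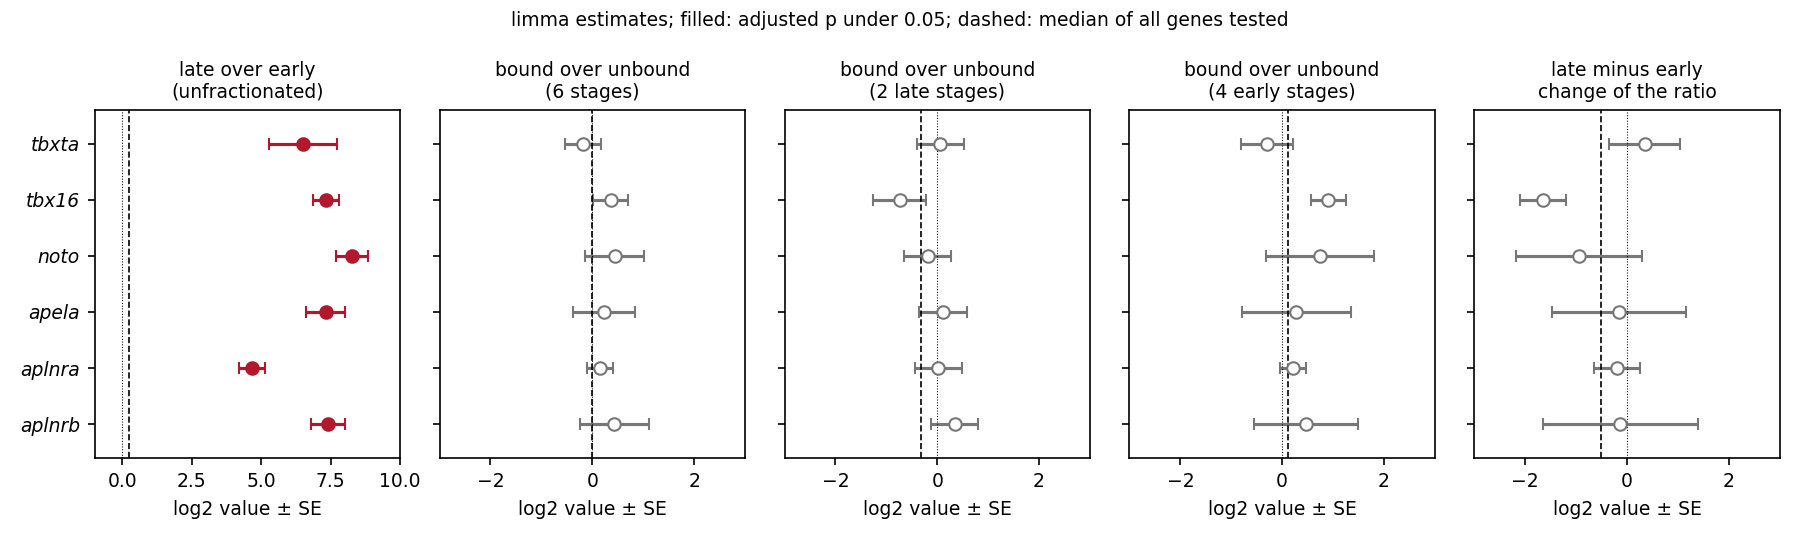
limma estimates (log2, ± SE) of the 6 genes in each comparison. Filled points passed an adjusted p under 0.05, dashed lines mark the median of all genes tested. All 6 pass in late over early unfractionated RNA (4.67 to 8.27), and none passes in the 4 comparisons of the bound over unbound ratio.

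Other genes of the same pathways were read from lists chosen with earlier results of these data known. Of 13 further genes of Apelin and related receptor signalling, 4 were higher at 3.5 and 5.3 hpf than earlier in unfractionated RNA and none lower (median log2 0.78, against 0.23 for all genes), where 22.5% of all genes were higher and 13% lower. A count of 4 of 13 is near that share. They were the chemokine cxcl12b (5.31 ± 0.61), the G protein subunits gna12a (2.62 ± 0.43) and gnai1 (3.30 ± 0.66), and rgs3a (4.77 ± 0.96), a regulator of G protein signalling. These 4, and the genes of the next sentences that led no list, were named after their values were seen. The Apelin gene APLN itself, the other ligand of the receptors, was low at every stage, with 12.8 to 43.5 counts at the early stages and 55.7 and 46.3 at 3.5 and 5.3 hpf. Of 14 further T-box genes 5 were higher and none lower (median 1.73), beside the same 22.5% and 13% of all genes. Among them tbx16l, a close relative of tbx16, had 339.5 and 899.1 counts at 3.5 and 5.3 hpf, against 20.5 to 40.5 earlier (log2 4.41 ± 0.56). The others were TBX18, tbx5b, TBX4 and TBX15, which had 50.7 counts or fewer in every unfractionated library. The highest early counts of a listed T-box gene were those of mgaa, with 14279.6 to 27560.2 counts early and 21823.6 and 22817.1 at 3.5 and 5.3 hpf.

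In the same test 22.5% of all genes were higher and 13% lower, with a median log2 of 0.23. Of 14 further genes of the axial and dorsal midline, 8 were higher and 1 lower (median 3.14), among them the secreted dorsal factors admp (log2 7.27 ± 0.70) and chrd (6.76 ± 0.75). Of 30 genes of paraxial and ventral mesoderm, 15 were higher and none lower (median 2.29), led by drl (7.75 ± 0.84) and the ventral homeobox genes vox (9.29 ± 1.04) and ved (9.37 ± 1.09). Of 19 genes of Nodal, FGF and Wnt signalling, which act upstream of mesoderm genes, 14 were higher and 1 lower (median 3.17), led by the FGF ligand fgf17 (7.39 ± 0.61), the Nodal antagonist lft1 (8.06 ± 0.86) and the Wnt ligand wnt11f2 (5.94 ± 0.81). Of 9 maternal activators of the zygotic genome 1 was higher and 1 lower (median 0.19): CTNNB1 (1.21 ± 0.37), a beta-catenin gene, was higher, and SMAD2 (−1.22 ± 0.32), a Nodal signal transducer, was lower.

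In the bound over unbound ratio of the 2 late stages, 3.98% of all genes were higher and 5.63% lower. None of the 13 Apelin list genes and none of the 14 T-box genes passed with limma, which is near that share, and 1 gene of each list had an unadjusted p under 0.05. The calls in the other lists were all lost under the alternatives with edgeR on transcripts and with limma without the stage block, each of which called 0 of all transcripts or genes (3658 transcripts and 1411 genes had an unadjusted p under 0.05). Of the axial genes chrd was higher in bound RNA (1.69 ± 0.46, limma adjusted p = 0.00657) and OTX1 lower (−1.95 ± 0.47, 0.00154). Of the paraxial genes cdx4 was lower (−2.65 ± 0.67, limma adjusted p = 0.00286), and of the signalling genes fgf24 was lower (−2.49 ± 0.65, 0.00413). Of the 9 maternal activators, ctnnb2, a beta-catenin gene, was higher (2.25 ± 0.47, limma adjusted p = 0.000193) and sox19b, a SoxB1 transcription factor gene, lower (−1.43 ± 0.46, 0.0275). Over all 6 stages 5 of these 9 were higher and 1 lower in bound RNA, where 8.46% of all genes were higher and 7.1% lower. Within the mesoderm, signalling and activator lists, the late minus early change of the ratio was called, in the lower direction, for snai1a (−2.99 ± 0.35, limma adjusted p = 0.00526), gdf3 (−2.07 ± 0.38, 0.0128) and sox19b (−2.29 ± 0.51, 0.0264), and for no gene of the Apelin, T-box or axial lists, of which 2, 0 and 1 genes had an unadjusted p under 0.05. Of all genes, 2.36% were called higher and 5.39% lower in the late minus early change. Without 3.5 hpf no gene of the whole table was called in that change (limma, 4289 genes at an unadjusted p under 0.05).

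RNA of other parts of the embryo changed over the same stages. For the counts below, 22.5% of all genes were higher and 13% lower late in unfractionated RNA. Of 20 enveloping layer markers 13 were higher and 1 lower late, and their summed count in unfractionated RNA was 41674.1 and 303460.4 at 3.5 and 5.3 hpf, against 5681.0 to 10108.2 earlier. Of 12 yolk syncytial layer markers tested 9 were higher. The sums over all 14 listed were 15342.9 and 54250.4 late, against 396.1 to 621.1 earlier. No marker of either list was at 0 in a late unfractionated library. Of 18 oocyte genes 12 were lower late, with sums of 99153.4 and 40442.5, against 184265.3 to 220333.7 earlier. Of 13 follicle cell markers tested 6 were higher late. The sums over all 14 listed were 12777.7 and 12331.2 late, against 9559.9 to 14734.2 earlier. Those sums hold opposite moves: from egg to 5.3 hpf CYP17A1 went from 6622.5 to 2842.6 counts and NOTCH3 from 15.8 to 5185.9. The part of these other cells in the levels of the 6 genes was not tested.

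The genes whose pattern was most like each of the 6 were found by Pearson's r of log2(count + 1) over the 18 libraries among 17632 genes with a symbol and at least 100 counts in a library. The libraries share stages, so r is a description. Closest to tbxta were DLC1 (r = 0.988), EPAS1 (0.987) and SLC7A8 (0.985). Closest to tbx16 were fgf17 (r = 0.988), WDR53 (0.987) and si:dkey-95p16.2 (0.986). Closest to noto were stoml3a (r = 0.983), asb11 (0.982) and ms4a17a.4 (0.979). Closest to apela were PKDCC (r = 0.979), CCND1 (0.975) and CTSH (0.974). Closest to aplnra were il17rc (r = 0.974), MFGE8 (0.974) and the yolk syncytial gene mxtx1 (0.972). Closest to aplnrb were opn8c (r = 0.985), NEK6 (0.977) and BMPER (0.971). Of these, opn8c shared with aplnrb a lower level at 5.3 hpf than at 3.5 hpf, with 2162.3 against 3681.0 counts in unfractionated RNA. Among the 6 themselves r was highest for tbx16 and noto (0.969) and lowest for tbxta and aplnrb (0.844).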

How the data were processed

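The deposited gene table holds normalized counts: a signal per gene that the authors made by dividing counts by library factors, as its values show. The deposited transcript files hold estimated counts (expected counts) and TPM under the column names of Salmon, per the file headers. Per the submitters' processing notes, tools included STAR 2.4.2a, Cufflinks 2.2.1, Salmon 0.6.0 and DESeq2, with build GRCz10. The table's values of the 6 genes were matched, to within 0.01% in every library, by rounded reads of 1 transcript (4 genes) or 2 transcripts (tbxta and apela, with a term for mean transcript length) over 1 factor per library. Transcripts were joined by this match.

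limma 3.58.1 with a mean-variance trend was fitted to log2(normalized count + 1) over all genes with at least 10 counts in at least 2 libraries of the fit. All 6 genes passed this filter in all 5 comparisons. In late over early unfractionated RNA, noto passed only through the late libraries, where it was high. Its only early value of at least 10 there was 16.4 counts at 128 cells. Genes seen only late enter the shares of all genes in the same way. With no filter on low values noto was at 8.27 ± 0.61 in that test (limma adjusted p = 0.000374). Early stages are egg to 128 cells, late stages 3.5 and 5.3 hpf. A gene was called at a Benjamini-Hochberg adjusted p under 0.05. The stages stand in for replicates, so the SE holds differences between stages. With no replicate libraries, per-stage ratios, steps, onset and TPM orders are descriptions. edgeR 4.0.16 on rounded transcript counts was an alternative, with other pseudocounts, filters, scalings, no stage block, each stage left out, and, chosen after seeing the data, no length term. The fits were run on simulated counts with set fold changes, to check that the estimates came near those folds on average. The simulated stages held no other differences, so this cannot show how well stages stand in for replicates. The 6 genes and the 10 lists were chosen with earlier results of these data known. The genes named are the 6, up to 3 called genes of smallest p per list, the 3 most like genes each, and those said to be named after their values were seen. No sequence is shown, since a genome of this build was not used here.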

Additional observations from a re-analysis of the deposited data

Results flagged for a closer look

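In 18 groups of the 4 early stages (6 genes in 3 fractions), 4 had a library that stood apart by Dixon's test at its 95% critical value. In independent replicates chance flags about 1 group in 20. The libraries of each group here are different stages and not replicates, so that rate does not apply and the flags are descriptions. For tbx16 the 16-cell stage was low in bound RNA (137.5 counts, against 223.1 to 228.1 at the other early stages) and in unfractionated RNA (157.1, against 200.3 to 209.1). In unbound RNA its 16-cell library was also the lowest of the early stages, at 54.6 counts, without standing apart. For noto the 128-cell stage was high in unbound RNA, with 43.58 counts against 0 to 2.37 at the earlier stages. The bound value at 128 cells was 18.2 and the unfractionated value 16.4 counts. For apela the egg was high in unbound RNA, with 29.85 counts against 0 to 3.52 at the other early stages. All 22 reads of that library lay on the 748 nt transcript, and the bound egg library had 3 reads. What set these libraries apart was not tested.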

How the results depend on the processing

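The higher level of all 6 genes at 3.5 and 5.3 hpf in unfractionated RNA held its direction and its call in all 78 refits (13 alternatives each). Control-like entries had too few reads in unfractionated libraries for that scaling to be run there. Called members changed in 4 cases: scaled to the control-like entries, 3 were lower in bound RNA over all stages and 2 over the early stages (tbxta −2.11 and aplnra −1.63), median centring called 1 higher over the early stages (tbx16 1.06), and leaving out a stage called 0 to 1 lower in the late minus early change (tbx16 without 128 cells). All other counts of called members were as reported.

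No ratio estimate that changed sign was called as deposited, and the cause of each change was not tested. Over all 6 stages the control-entry scaling gave −1.11 for tbx16, −0.41 for noto, −0.72 for apela, −1.33 for aplnra and −0.80 for aplnrb, and library totals gave −0.21 for tbx16, −0.19 for apela, −0.43 for aplnra and −0.08 for aplnrb. Median centring gave 0.08 for tbxta and pseudocount 10 gave −0.02 for noto. Leaving out a stage gave −0.39 to 0.10 for tbxta, −0.06 to 0.77 for noto, −0.13 to 0.74 for apela and −0.33 to 0.98 for aplnrb. At the late stages control entries gave −0.67 for tbxta, −0.61 for apela, −0.71 for aplnra and −0.39 for aplnrb, and library totals −0.34, −0.28, −0.38 and −0.06 for the same genes. For noto TMM gave 0.02 and median centring 0.22. Single late stages gave −0.35 to 0.47 for tbxta, −0.41 to 0.02 for noto, −0.54 to 0.58 for aplnra and −0.16 to 0.84 for aplnrb, with no test, since no residual degree of freedom was left. At the early stages control entries gave −0.93 for tbx16, −0.16 for noto, −0.77 for apela, −1.63 for aplnra and −1.01 for aplnrb. Library totals gave −0.15 for apela, −0.45 for aplnra and −0.08 for aplnrb, and pseudocount 10 gave −0.04 for aplnrb. Leaving out a stage gave −0.68 to 0.13 for tbxta, −0.12 to 0.37 for apela and −0.78 to 1.40 for aplnrb. Without 128 cells noto and apela, and without the egg apela, missed the filter there and gave no value. In the late minus early change, control entries gave 0.16 for apela, 0.93 for aplnra and 0.62 for aplnrb, TMM 0.10, 0.08 and 0.15, median centring 0.09, 0.06 and 0.12 for the same genes. Library totals gave 0.07 for aplnra and 0.04 for aplnrb, edgeR on transcripts 0.09 and 0.51, and pseudocount 10 gave 0.09 for apela and 0.38 for aplnrb. Leaving out a stage gave −0.07 to 0.77 for tbxta, −1.04 to 0.41 for apela, −0.75 to 0.36 for aplnra and −1.06 to 1.12 for aplnrb.

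Counts over all genes moved by over 1.5 times in several fits. In unfractionated RNA 5380 genes were higher as deposited and 1556 without 5.3 hpf, and 3120 were lower, against 1662 to 5039 with a stage left out, 6589 with median centring and 1765 with edgeR. For the ratio at the late stages, 966 were higher and 1366 lower as deposited, against 0 and 0 with edgeR (3658 transcripts at an unadjusted p under 0.05), 0 and 0 without the stage block (1411 genes at an unadjusted p under 0.05), 2 and 11 with control entries, 433 and 2908 with library totals, 1850 and 427 with median centring. For the early stages 3819 were higher and 3008 lower, against 351 and 13949 with control entries and 2030 and 6822 with library totals. For the change of the ratio 587 were higher and 1342 lower, against 321 and 30 with control entries, 896 and 830 with TMM, 92 and 37 with edgeR, and 0 and 0 without 3.5 hpf (limma, 4289 genes at an unadjusted p under 0.05). Over all stages median centring gave 3268 higher and 949 lower, edgeR 1359 and 389.

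Depth limits the early values of noto, apela and aplnrb, which rest on 0 to 94.8 reads per library. The labels give no replicate numbers. The bound and unbound libraries of a stage were paired by the stage block, and without it none of the 6 genes was called over all, late or early stages.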
